A study of Rattus norvegicus with 6 samples.

Results

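Long-chain fatty acids reach triglyceride through a short series of steps, and the genes of uptake, binding and activation were read here in rat adipose-derived stem cells (ADSCs) with and without adipogenic induction. The genes were chosen by symbol, with earlier results of these data known: the cytoplasmic carriers Fabp3, Fabp4 and Fabp5, the Slc27 family proteins Slc27a1, Slc27a3 and Slc27a4, and the long-chain acyl-CoA synthetases Acsl1, Acsl3, Acsl4 and Acsl5. Of these 10 symbols, 9 were matched to a feature that the platform annotation gives exactly one symbol, each by a single feature, among 18166 genes in all. Fabp5 was not analysed here.

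The control group consisted of ADSCs, stromal precursors taken from inguinal fat of female Wistar rats aged 2 weeks and grown in α-MEM with 10% fetal bovine serum. The induced group held ADSCs of the same source after 7 days of induction in α-MEM with 0.5 mM 3-isobutyl-1-methylxanthine (which raises cAMP), 1 µM dexamethasone (a glucocorticoid), 5 µg/ml insulin and 20% serum, so that the serum content differed along with the inducers. Each group had 3 arrays labelled as biological replicates. The labels used here state neither how long control cells were kept nor whether cultures came from separate or pooled animals. The p-values therefore set differences against the spread between these cultures, and how far they extend to other animals is not known.

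Free fatty acids cross the plasma membrane with the help of surface proteins, among them members of the Slc27 (FATP) family, and are carried through the cytosol by fatty acid binding proteins. Long-chain acyl-CoA synthetases join them to coenzyme A, which traps them in the cell and makes them substrates for triglyceride assembly, membrane lipids or mitochondrial oxidation. Slc27 proteins also have acyl-CoA synthetase activity. Fabp4 and Acsl1 are the abundant carrier and synthetase of mature fat cells, while Fabp3 is best known from heart, skeletal muscle and brown fat.

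Induction was accompanied by a higher signal of 1 gene in each family, and for the other 6 genes the induced and control arrays overlapped. Acsl1 rose 11.7-fold (95% interval 6.52 to 21.0). Fabp4 averaged 19.0-fold higher (6.48 to 56.0) and Slc27a1 5.65-fold higher (2.42 to 13.2), and for both the 3 induced arrays lay above the 3 control arrays although the adjusted p missed 0.05. Fabp3, Acsl3 and Slc27a3 were high on 1 induced array, and for Slc27a4, Acsl4 and Acsl5 the groups overlapped with mean differences of -0.11, -0.28 and -0.08 on the log2 scale.

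Values are log2 RMA signals as deposited, and each difference is induced minus control on that scale, with the standard error (SE) of limma's fit and a Benjamini-Hochberg adjusted p-value taken over all 18166 genes. The threshold for a call was an adjusted p of 0.05. By that rule 1 of 9 genes, Acsl1, was called, and it was higher, while 0.749% of all genes were called and 0.479% were called higher. The 3 induced arrays lay wholly above the 3 control arrays for 3 of 9 genes, against 12.0% of all genes. Counting either direction, groups did not overlap for the same 3 of 9 genes, against 25.4% of all genes. A mean difference of at least 1 on the log2 scale was reached by 3 of 9 genes and by 2.81% of all genes. The median difference of the 9 genes was 0.31, beside -0.01 over all genes. Levels of different genes are not set against each other here, because each feature has its own probes and RMA levels need not be comparable between features. Where 1 gene is subtracted from another below, only the shift between groups is read.

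**Figure D1:**
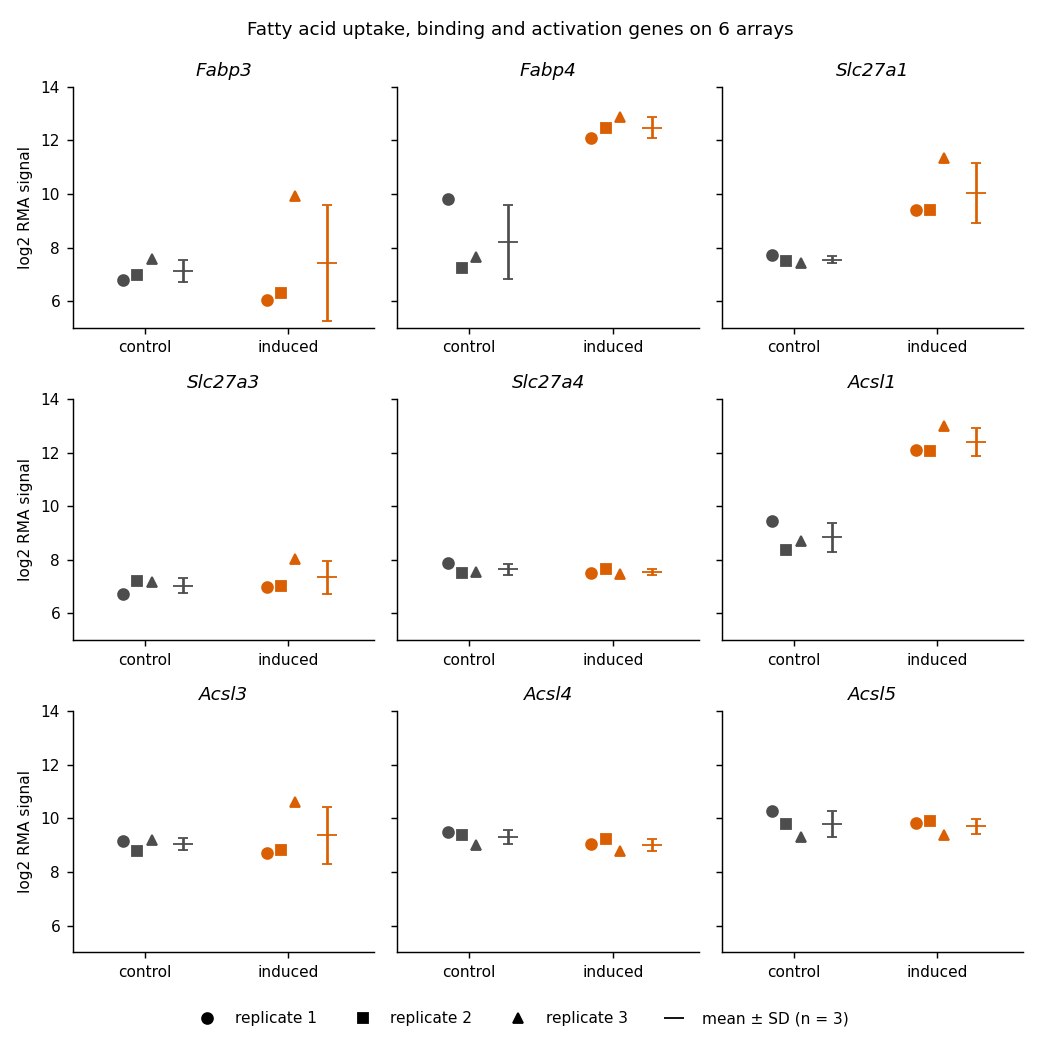
Each panel shows the log2 RMA signal of 1 gene (vertical axis, the same in all panels) on 3 control and 3 induced arrays; marker shape gives the replicate number, and the horizontal bar with its whiskers is the mean ± SD of 3 arrays. Fabp4, Slc27a1 and Acsl1 do not overlap between groups, whereas Fabp3, Slc27a3 and Acsl3 are high on induced replicate 3 and not on the other induced arrays.

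The arrays differed within groups, which touches several of these genes. Induced replicate 3 had the lowest correlation with its own group over all features (r = 0.968 and 0.969, against 0.989 between induced replicates 1 and 2). The mean of 7 mature adipocyte markers (Adipoq, Plin1, Cidec, Retn, Lep, Cfd and Thrsp) was 8.04 on control replicate 1, 6.30 on control replicate 2 and 6.38 on control replicate 3. Induced cells gave 10.85, 10.88 and 11.53, and all 7 genes had their induced arrays above control, 5 of them called (Plin1, Cidec, Retn, Lep and Thrsp). The mean of 9 stromal precursor markers ran from 9.22 to 9.39 in control and was 8.92, 8.92 and 7.91 in induced cells, with 0 of 9 called by limma (5 under 0.05 unadjusted). Over all genes 3205 of 18166 had an unadjusted limma p under 0.05. Thy1, a surface protein of these precursors, read 11.84 to 12.33 in control and 11.10 to 11.21 in induced cells. Itgb1, the other gene named by rule, read 11.64, 11.77 and 11.84 in control and 11.74, 11.90 and 11.13 in induced cells. Groups did not overlap for 5 of 9, all lower in induced cells, against 25.4% of all genes in either direction. Cd34 and Dpp4 (chosen after their values were seen) were among them, with differences of -1.31 (limma adjusted p = 0.269) and -0.55 (0.196). Pdgfra, Pdgfrb and Vcam1 overlapped, as did Itgb1, but all were lowest on induced replicate 3. On induced replicates 1 to 3 Pdgfra read 11.99, 11.95 and 9.05, Pdgfrb 10.69, 10.60 and 8.87, and Vcam1 7.95, 7.64 and 5.28. Of 8 mural, 5 Schwann and 8 epithelial markers 0 were called by limma (1, 2 and 0 under 0.05 unadjusted). Groups did not overlap for 3, 2 and 0 of them, against 25.4% of all genes. S100b and Mbp, the Schwann markers named by rule, had every induced array above control. Their differences were 2.19 (limma adjusted p = 0.0911) and 1.96 (0.195), the only positive ones in that list. The mural Notch3 and Myh11 stood at 0.80 (0.102) and -0.62 (0.408), the epithelial Krt8 and Cldn4 at -0.03 (0.962) and -0.13 (0.787). In bulk RNA a larger share of cells of one type and more RNA per cell cannot be told apart, and which part these array differences have in the results below was not tested.

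Among the binding proteins, Fabp4, the fatty acid carrier of adipocytes and macrophages, read 9.80, 7.23 and 7.63 on control replicates 1 to 3. In induced cells it read 12.08, 12.46 and 12.87. The groups were separated by 2.28 between the highest control and the lowest induced array, and control replicate 1 stood well above the other control arrays. The difference was 4.25 (SE 0.65, limma adjusted p = 0.0507), from 8.22 ± 1.38 to 12.47 ± 0.40 (SD, n = 3 arrays each). It was the 16th largest positive difference of all genes. Without control replicate 1 the difference was 5.04 (limma adjusted p = 0.0081), which passed. Without induced replicate 3 it was 4.05 (0.0372), which also passed. It did not pass without control replicate 2 (0.147), control replicate 3 (0.152), induced replicate 1 (0.177) or induced replicate 2 (0.139).

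The array with the high control value of Fabp4 is the one with the highest adipocyte marker mean among controls, as given above. Fabp4 lay 2.37 above the mean of the other control arrays, a gap that only 8 of 18166 genes exceeded. Acsl1 and Acsl5 also stood higher there, by 0.91 and 0.74, so that 3 of 9 genes stood at least 0.5 above the other control arrays, against 5.17% of all genes. Fabp3 and Slc27a3 were lower on that array than the mean of the others, by 0.46 and 0.47 on the log2 scale.

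Fabp4 is also expressed by macrophages and by endothelium of small vessels. The mean of 14 macrophage and leukocyte markers was 6.66, 7.02 and 5.56 in control and 7.70, 7.24 and 5.80 in induced cells; 0 of 14 were called (1 under 0.05 unadjusted) and for 0 of 14 did the groups separate. Lyz2, a lysozyme of macrophages, read 9.31, 10.19 and 4.71 in control and 11.56, 10.99 and 4.44 in induced cells, low on replicate 3 of both groups. Cd14, a coreceptor for bacterial lipopolysaccharide, read 9.56, 9.81 and 9.06 in control and 10.01, 9.98 and 9.61 in induced cells. Only 1 of the 14 markers was higher on induced replicate 3 than on both other induced arrays. This was Cd68 (chosen after its values were seen), which read 8.92 and 8.38 on induced replicates 1 and 2 and 9.45 on induced replicate 3. The mean of 9 endothelial markers stayed between 5.35 and 5.55 on all 6 arrays, with 0 called and 0 under 0.05 unadjusted. Egfl7, a secreted endothelial protein, read 8.27 on induced replicate 3 and 6.76 to 7.29 on the other 5 arrays, and Ldb2 read 5.81 to 6.68. Tek, the angiopoietin receptor (chosen after its values were seen), was the 1 endothelial marker whose groups separated, with a difference of -0.74 (limma adjusted p = 0.34). The part of macrophage or endothelial RNA in the Fabp4 signal was not tested.

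Fabp3, the carrier of heart and muscle, behaved otherwise. Its control values were 6.81, 6.96 and 7.58. On induced replicates 1 and 2 it read 6.04 and 6.30, below every control array, and on induced replicate 3 it read 9.93, above every control array. The groups therefore overlapped through 1 array. The mean difference of 0.31 (SE 1.00, limma adjusted p = 0.915, 95% interval -2.08 to 2.69) describes neither set of induced arrays, and without induced replicate 3 it turned to -0.95 (limma adjusted p = 0.1). Fabp3 stood 3.76 above the mean of the other induced arrays on induced replicate 3, and only 4 of 18166 genes had a larger gap there.

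The mean of 10 striated muscle markers was 5.88, 6.07 and 6.21 in control and 5.94, 5.87 and 5.89 in induced cells, with 0 called and 0 under 0.05 unadjusted. Des, the intermediate filament protein of muscle, read 6.53, 8.14 and 7.81 in control and 6.85, 7.12 and 6.76 in induced cells. Acta1, skeletal muscle actin, read 6.31, 6.59 and 7.48 in control and 6.31, 6.10 and 6.01 in induced cells. The part of muscle RNA in the Fabp3 signal was not tested.

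In the Slc27 family, Slc27a1 (FATP1), the insulin-responsive transport protein of fat and muscle, read 7.71, 7.50 and 7.43 in control. The induced arrays read 9.39, 9.41 and 11.33. Control values lay close together and every induced value was above them, with a gap of 1.68, but induced replicate 3 lay far from its group. The difference was 2.50 (SE 0.51, limma adjusted p = 0.0922), from 7.55 ± 0.14 to 10.05 ± 1.11 (SD, n = 3). Without induced replicate 3 it was 1.85 and passed (SE 0.13, limma adjusted p = 0.00177). With any other single array left out it did not pass (limma adjusted p = 0.145 to 0.266).

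Slc27a3 (FATP3), a family member with acyl-CoA synthetase activity, read 6.72, 7.21 and 7.17 in control and 6.97, 7.00 and 8.04 in induced cells. The groups overlapped, and 1 induced array stood above the rest. Its difference was 0.31 (SE 0.31, limma adjusted p = 0.679, 95% interval -0.45 to 1.06), and -0.05 without induced replicate 3. Slc27a4 (FATP4), a fatty acyl-CoA synthetase known from skin and gut as well as fat, read 7.88, 7.50 and 7.55 in control and 7.51, 7.65 and 7.45 in induced cells. All 6 values lay within a narrow band. The difference was -0.11 (SE 0.14, limma adjusted p = 0.759), and its 95% interval of -0.44 to 0.23 corresponds to 0.738-fold to 1.17-fold; without control replicate 1 the estimate was 0.01.

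Of the synthetases, Acsl1, the main long-chain acyl-CoA synthetase of adipocytes, read 9.45, 8.38 and 8.70 in control. In induced cells it read 12.10, 12.07 and 13.00. Nothing overlapped, and the gap between the groups was 2.62. Acsl1 rose by 3.55 (SE 0.35, limma adjusted p = 0.0184), from 8.84 ± 0.55 to 12.39 ± 0.53 (SD, n = 3), the 35th largest positive difference of all genes. The call ended without control replicate 2 (limma adjusted p = 0.0718), control replicate 3 (0.0812), induced replicate 1 (0.102) or induced replicate 2 (0.0789). The differences there were 3.32 to 3.71, and 15, 20, 2 and 26 of all genes were called. The call held without control replicate 1 (0.0278) and without induced replicate 3 (0.00452). With same-numbered cultures blocked, a pairing that the labels do not give, it was lost too (0.0678).

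Acsl3, a synthetase of the endoplasmic reticulum and of forming lipid droplets, read 9.16, 8.79 and 9.18 in control. The induced arrays read 8.71, 8.82 and 10.60. As with Fabp3, 1 induced array was above all control arrays and the others were not. The difference was 0.33 (SE 0.50, limma adjusted p = 0.791, 95% interval -0.85 to 1.52), and -0.28 without induced replicate 3 (0.424).

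Acsl4, which prefers arachidonic acid, read 9.50, 9.39 and 9.00 in control and 9.03, 9.24 and 8.80 in induced cells. The ranges overlapped, and the estimate was negative under every setting tried. It was -0.28 (SE 0.18, limma adjusted p = 0.485, 95% interval -0.71 to 0.15). Acsl5, a synthetase of mitochondria and endoplasmic reticulum, read 10.29, 9.78 and 9.31 in control and 9.85, 9.90 and 9.39 in induced cells. Its induced values lay inside the control range, and the difference was -0.08 (SE 0.27, limma adjusted p = 0.917, 95% interval -0.73 to 0.57), turning to 0.17 without control replicate 1 and to 0.08 without induced replicate 3.

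**Figure D2:**
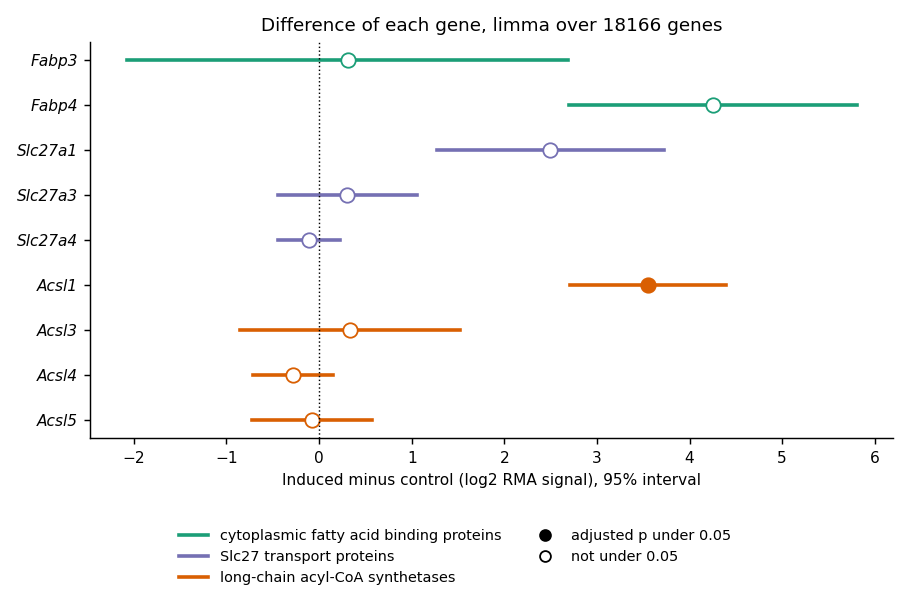
The horizontal axis is induced minus control in log2 RMA signal and each row is 1 gene; points are limma estimates, lines their 95% intervals, colours the 3 families, and a filled point marks an adjusted p under 0.05. Acsl1 alone is filled at 3.55, the intervals of Fabp4 and Slc27a1 lie above 0 without passing over all genes, and the other 6 intervals include 0.

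Whether members of a family changed by different amounts was asked for 6 pairs, by taking the value of one gene minus that of another on each array and comparing those differences between groups with a two-sided exact permutation test over arrays. With 3 arrays against 3 the smallest p is 0.1, or 0.12 after Benjamini-Hochberg adjustment over the 6 pairs as found here, so no pair could pass 0.05. Acsl1 minus Acsl4 went from -0.46 ± 0.50 to 3.37 ± 0.73 (SD, n = 3), a shift of 3.83 (exact p = 0.1, adjusted p = 0.12). Acsl1 minus Acsl5 shifted by 3.63 and Acsl1 minus Acsl3 by 3.22, Slc27a1 minus Slc27a4 by 2.60 and Slc27a1 minus Slc27a3 by 2.19, each with exact p = 0.1 and adjusted p = 0.12. For these 5 pairs every induced array lay above every control array, induced replicate 3 included.

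The remaining pair was less clear. Fabp4 minus Fabp3 was 2.99, 0.27 and 0.05 in control and 6.05, 6.16 and 2.94 in induced cells. The value of induced replicate 3 lay just under that of control replicate 1, so the groups overlapped. The shift was 3.94 (exact p = 0.2, adjusted p = 0.2).

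The 9 genes differed in how they read on induced replicate 3. On that array 4 of 9 (Fabp3, Slc27a1, Acsl3 and Slc27a3) stood at least 1 above the mean of the other induced arrays, against 4.26% of all genes. Their gaps were 3.76, 1.93, 1.84 and 1.06. Acsl1 was 0.91 and Fabp4 0.60 higher there, whereas Slc27a4, Acsl4 and Acsl5 were lower by 0.13, 0.34 and 0.49 on the log2 scale. Of the 4 genes with the widest gaps, only Slc27a1 was above all control arrays on the other induced arrays too. Leaving this array out, 3 of 9 genes were called (Fabp4, Slc27a1 and Acsl1), against 3.07% of all genes. Leaving out control replicate 1 instead, 2 of 9 were called (Fabp4 and Acsl1), against 0.617%. Leaving out both, an alternative chosen after seeing the data, 3 of 9 were called (Fabp4, Slc27a1 and Acsl1), against 5.38%. With any other single array left out 0 of 9 were called, and 2 to 26 of all 18166 genes.

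**Figure D3:**
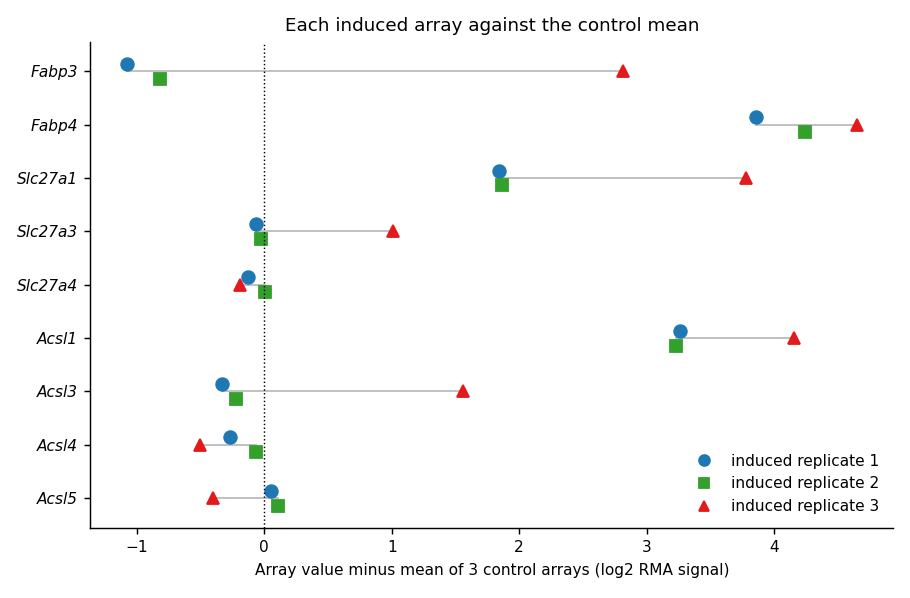
Each row is 1 gene, and the 3 points are its values on induced replicates 1 to 3 minus the mean of the 3 control arrays, in log2 RMA signal on the horizontal axis. Replicates 1 and 2 lie close together for most genes, while the points of Fabp4 are about evenly spaced (3.86, 4.24 and 4.65). Replicate 3 lies to the right for Fabp3 (2.82 against -1.08 and -0.81), Slc27a1, Acsl3, Slc27a3 and Acsl1 (4.16 against 3.26 and 3.23). It lies to the left for Acsl4 and Acsl5.

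The sequence upstream of the start of transcription is shown for Acsl1 and Slc27a1. These are the members whose groups did not overlap and for which the promoter table has an entry. Acsl3 is shown as an example of the synthetases whose groups overlapped, which also include Acsl4 and Acsl5. Sequences are the 250 bases before 1 annotated start per gene, from RefSeq on GRCr8, 5′ to 3′ on the gene's strand; 8 of the 9 genes had an entry, and Fabp4 is named only. For Acsl1 and Slc27a1 the start used lies inside the gene's annotated span, so other starts exist. Capitals mark matches, on either strand, to CCAAT (the CCAAT box), GGGCGG (the GC box bound by Sp1-type factors), TATAAA (the TATA box), AGGTCA (the half-site of many nuclear receptors) and TTGCNNAA (a C/EBP core). In Acsl3 a CCAAT match ends directly before a GGGCGG match. The windows are chr16:52532393-52532642 (minus strand) for Acsl1, chr16:18312717-18312966 (plus strand) for Slc27a1 and chr9:87563351-87563600 (plus strand) for Acsl3.
Acsl1: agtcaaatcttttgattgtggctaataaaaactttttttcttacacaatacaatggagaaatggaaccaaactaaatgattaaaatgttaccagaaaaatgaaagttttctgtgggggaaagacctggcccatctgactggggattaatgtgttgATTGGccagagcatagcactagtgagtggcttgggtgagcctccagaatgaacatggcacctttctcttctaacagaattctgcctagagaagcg
Slc27a1: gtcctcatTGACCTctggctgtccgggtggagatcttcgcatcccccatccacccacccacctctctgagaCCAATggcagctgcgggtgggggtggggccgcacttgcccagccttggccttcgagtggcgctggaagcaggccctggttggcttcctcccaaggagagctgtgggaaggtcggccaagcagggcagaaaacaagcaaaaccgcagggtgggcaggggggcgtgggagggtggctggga
Acsl3: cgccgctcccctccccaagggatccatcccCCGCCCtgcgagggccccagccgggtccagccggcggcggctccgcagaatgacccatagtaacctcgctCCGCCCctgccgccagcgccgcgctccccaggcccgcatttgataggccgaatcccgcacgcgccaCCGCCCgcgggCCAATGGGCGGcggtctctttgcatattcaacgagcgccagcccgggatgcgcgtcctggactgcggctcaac

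The Acsl1 window was AT-rich, with 40.0% G and C and 1 CpG, lower in G and C than most rat promoters (13.8% of 33469 windows had less). Acsl3 lay at the other end, with 72.4% and 31 CpG (94.3% of windows had less), and Acsl4 had 70.4% and 28 CpG. Acsl5, whose groups overlapped as well, had 50.4% and 4 CpG. Slc27a1 had 65.6% and 9 CpG, against medians of 51.2% and 5 CpG over all windows. The Acsl1 window held 1 CCAAT match, on the reverse strand at positions -95 to -91 from the start. That of Slc27a1 held 1 CCAAT match (-179 to -175) and 1 AGGTCA match on the reverse strand (-242 to -237).

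GGGCGG was found in the windows of Acsl3 (4 matches), Slc27a3 and Acsl4 (2 each) and Slc27a4 (1), that is in 4 of 8 genes, against 30.5% of all windows, and not in those of Acsl1, Slc27a1, Fabp3 or Acsl5. CCAAT was present in 4 of 8 (Acsl1, Slc27a1, Slc27a3 and Acsl3), against 34.0%. TATAAA was found in 1 of 8 (Acsl5), against 12.9%, AGGTCA in 1 of 8 (Slc27a1), against 14.1%, and TTGCNNAA in 1 of 8 (Slc27a4), against 9.22%. These are descriptions of letters in a short window and say nothing of binding.

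The rest of the pathway was read from 8 lists of 90 genes, of which 82 were measured. In these 3 genes (Agpat2, Dgat2 and Lpin1) rose and 0 fell, all in triglyceride assembly, against 0.749% of all genes called, with a median difference of 0.20 over the 82. In each list the count at an unadjusted limma p under 0.05 is given beside a count of 0 calls. Over all genes that count was 3205 of 18166. Of 9 other carriers of the Fabp family, which here include the retinoic acid carriers Crabp1 and Crabp2, 0 were called and 1 was under 0.05 unadjusted (median 0.01). Crabp1 read 8.14, 8.02 and 10.01 in control and 6.39, 6.33 and 6.58 in induced cells, a difference of -2.29 (SE 0.51, limma adjusted p = 0.106) with no overlap. Crabp1 was called without control replicate 3, without both replicate 3 arrays and with array weights, and in no other setting. Of 3 other Slc27 members 0 were called and 0 were under 0.05 unadjusted (median -0.01), all with values under 5.3, Slc27a6 standing at -0.19 (limma adjusted p = 0.398) and Slc27a2, a very long-chain synthetase of liver, at 0.11 (0.872). Cd36, the main fatty acid receptor of adipocytes, was not analysed here.

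Among 13 other acyl-CoA synthetases 0 were called and 4 were under 0.05 unadjusted (median 0.56), and 4 had every induced array above control. The largest differences were those of short-chain enzymes, Acss3 at 2.55 (SE 0.47, limma adjusted p = 0.0775) and Acss2, which activates acetate for fatty acid synthesis, at 2.06 (SE 0.44, 0.0963). Acss2 read 9.34, 8.37 and 8.68 in control and 10.37, 10.40 and 11.79 in induced cells. Of 10 genes for surface uptake and supply 0 were called and 3 were under 0.05 unadjusted (median 0.13). Lpl, the lipase that frees fatty acids from lipoproteins, stood at 1.70 (limma adjusted p = 0.113) with induced values of 12.48, 12.50 and 12.76 above 11.70, 10.95 and 10.01 in control, and Cav1, the caveolar coat protein, at 0.66 (0.233).

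Downstream, 0 of 7 acyl-CoA binding proteins were called and 3 were under 0.05 unadjusted (median 0.28), with Hsdl2 at 1.43 (limma adjusted p = 0.195) and Scp2, a sterol and lipid carrier, at 1.36 (0.12). Of 12 thioesterases, which undo activation, 0 were called and 3 were under 0.05 unadjusted (median 0.05), with Acot2 at 1.28 (0.262) and Acot13 at 0.76 (0.439). The esterification list held the called genes, 3 of 16 (median 0.71). Lpin1, a phosphatidate phosphatase, rose by 3.40 (SE 0.49, limma adjusted p = 0.0452), Dgat2, which adds the last acyl chain, by 3.04 (SE 0.34, 0.0243) and Agpat2, which adds the middle one, by 2.89 (SE 0.26, 0.0145). These calls did not hold in every fit with 1 array left out. All 3 were lost without control replicate 2, without control replicate 3 or without induced replicate 1. Calls over all genes fell there from 136 to 15, 20 and 2. Only Agpat2 passed without control replicate 1 (112 of all genes called) or without induced replicate 2 (26). In the carnitine shuttle and first step of oxidation 0 of 12 were called and 5 were under 0.05 unadjusted (median 0.77), with Cpt2 at 1.63 (limma adjusted p = 0.188) and Cpt1b, the muscle and brown fat form of the shuttle's entry enzyme, at 1.49 (0.314). For 10 of these 12 and for 14 of the 16 esterification genes induced replicate 3 was the highest induced array, Cpt1b reading 10.15 there against 7.75 and 7.53. The same held for 9 of 12 thioesterases, 5 of 7 acyl-CoA binding proteins and 8 of 13 other synthetases. It held for 5 of 10 surface genes, 2 of 9 other Fabp family carriers and 1 of 3 other Slc27 members. The share over all genes was not counted.

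**Figure D4:**
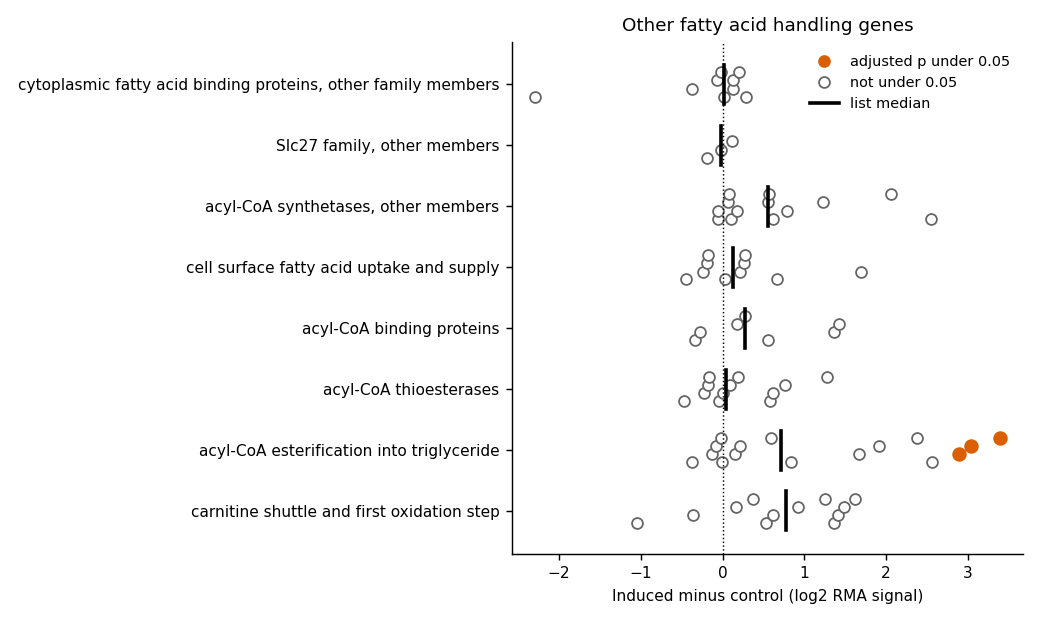
Each circle is 1 gene of 8 lists of other fatty acid handling genes, placed by induced minus control in log2 RMA signal; filled circles have an adjusted p under 0.05 and the black bar is the list median. The 3 filled circles, Agpat2, Dgat2 and Lpin1 at 2.89 to 3.40, are all in the esterification list.

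The genes whose profiles lay nearest to those of the leading member of each family were found by Euclidean distance over the 6 arrays after centring each gene on its own mean. Nearest to Fabp4 were Plin1 (distance 0.73), Akr1c15 (0.77) and Apobec1 (0.96), all 3 with a high control replicate 1: 8.59 against 6.70 and 7.01 for Plin1. Nearest to Slc27a1 were Gpat3 (0.22), Kcnn3 (0.31) and Acaca (0.38), all 3 with a high induced replicate 3: 10.71 against 8.99 and 9.00 for Gpat3. Nearest to Acsl1 were Abhd1 (0.49), Cyp4b1 (0.55) and Lpin1 (0.60). These are descriptions over 6 arrays of 2 groups, and many genes that differ between the groups lie close to one another by this measure.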

How the data were processed

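RMA was used by the submitters, per the submitters' processing notes, and the deposited log2 values are its output (background-corrected, quantile-normalized, summarised per feature); version and genome build: not given in the sources used here. Each array received labelled cRNA made from 6 µg of RNA, per the labels. Array medians ran from 5.64 to 5.73. RMA compresses low signals, gives no detection call and hides changes in total RNA, and the number of arrays limits the precision.

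Of 36685 features, 18511 had 1 symbol, reduced to 18166 genes by the highest mean over 6 arrays. Induced and control arrays were set against each other in R 4.3.3 with limma 3.58.1 (a two-sided moderated test, no block, 4 residual and 2.65 prior degrees of freedom), tested on simulated data. The members and lists were chosen with earlier results of these data known. Genes named are all members, up to 4 called genes per other list or, with none called, the 2 of largest absolute difference, Cd36, and the 3 nearest profiles of Fabp4, Slc27a1 and Acsl1. Marker lists are given mainly by their means; the rule names the 2 genes of highest mean, and other markers were chosen after their values were seen. Pair p-values were adjusted over 6 pairs rather than the planned 7, as Fabp5 was not analysed. Alternatives were other priors, array weights, filters, scalings and left-out arrays. Protein sequences were not used here.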

Additional observations from a re-analysis of the deposited data

How the results depend on the processing

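Over 17 alternatives the difference of Acsl1 stayed between 3.18 and 3.85 and passed in 12, that of Fabp4 between 3.76 and 5.04 and passed in 8, and that of Slc27a1 between 1.80 and 2.82 and passed in 4. The count of the 9 genes called was 1, and 0 with a replicate block, 2 with a mean-variance trend prior, with genes above the median level only or with quantile normalization, and 3 with array weights, without both replicate 3 arrays or without control replicate 1 and induced replicate 3 together. It ran from 0 to 3 with single arrays left out. Calls over all genes, 136 at first, were 12 with the replicate block, 929 with array weights, 740 without both replicate 3 arrays, 978 without control replicate 1 and induced replicate 3, 69 over all 36685 features, and 2 to 557 with single arrays left out. Of 82 other fatty acid handling genes 3 were called, 0 with the replicate block, 12 with array weights, 16 without both replicate 3 arrays, 17 without control replicate 1 and induced replicate 3, and 0 to 11 with single arrays left out. The 6 pair shifts kept their direction without any single array. The block changed the call of 1 member, Acsl1 (adjusted p = 0.0678 with limma), and nothing in the labels ties same-numbered cultures. Deviations of same-numbered arrays from their group means correlated at r = 0.02, 0.12 and 0.15. Induced replicates 2 and 3 correlated best with the control array of their own number, and induced replicate 1 with control replicate 2 (0.12). Whether same-numbered cultures were paired cannot be told from these values.

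The estimates of Fabp3, Slc27a3, Slc27a4, Acsl3 and Acsl5 changed sign, none of them passing in any setting. With array weights Fabp3 was -0.64, Slc27a3 -0.029, Acsl3 -0.068 and Acsl5 0.070. Without both replicate 3 arrays Fabp3 was -0.72 (limma adjusted p = 0.0572, just over the threshold) and Acsl3 -0.21. Without control replicate 1 Slc27a4 was 0.01 and Acsl5 0.17. Without induced replicate 3 Fabp3 was -0.95, Slc27a3 -0.05, Acsl3 -0.28 and Acsl5 0.08. Without control replicate 1 and induced replicate 3 Fabp3 was -1.10 (limma adjusted p = 0.059), Slc27a3 -0.21, Slc27a4 0.055, Acsl3 -0.22 and Acsl5 0.33. With single arrays left out the estimates ran from -0.95 to 1.00 for Fabp3, -0.05 to 0.49 for Slc27a3, -0.18 to 0.01 for Slc27a4, -0.28 to 0.67 for Acsl3 and -0.32 to 0.17 for Acsl5. The planned pair of Fabp4 with Fabp5 was not run. The cause of these changes was not tested.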
